A study of Mus musculus with 2 samples.

Results

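Sites listed as m6A whose adenosine is followed by T where the DRACH consensus has C were taken from the GLORI site lists of 2 mouse brain libraries. On the site strand of GRCm38 these sites have A, G or T 2 bases before the adenosine, A or G 1 base before it, T 1 base after it and A or T 2 bases after it, and they are called DRATW sites here. They numbered 9901 of the 219409 positions in the union of both lists, or 4.51%. The 12 possible 5-mers were all present, and all 9901 members were kept, with no filter on any measured value.

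The libraries came from poly(A)+ RNA of a newborn (P0) female F1r mouse, the offspring of a C57 mother and a PWK father, and were made from its cerebellum and its cerebrum. There was 1 library per tissue and no untreated or demethylated control among them. The lists hold coordinates and strands alone, with neither rates nor reads behind them, so no depth and no level of methylation can be given. A position absent from a list can be unmethylated, not expressed or too thinly covered, and a difference between these libraries has no replicate to be tested against.

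N6-methyladenosine is deposited on nascent mRNA mainly by the METTL3-METTL14 methyltransferase, which prefers adenosines followed by C within DRACH, where D excludes C, R is a purine and H excludes G. It is read by YTH-domain proteins and is common in the long internal exons and 3′ UTRs of neuronal transcripts. In GLORI, glyoxal and nitrite deaminate unmethylated adenosine to inosine, which is sequenced as G, while m6A resists and is read as A, so an adenosine that escaped deamination for another reason is also read as A.

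The lists were checked against the labels. Of 10 hindbrain genes, 7 had a listed site of any 5-mer in cerebellum and 4 in cerebrum, with Atoh1, Skor2 and Pax2 absent from both. Of 13 forebrain genes, all 13 had a listed site in cerebrum and 6 in cerebellum, where Emx1, Tbr1, Fezf2, Dlx1 and Dlx2 were among those with none. Xist, the RNA of the inactive X chromosome, carried 83 and 79 sites in cerebellum and cerebrum. The chromosome Y nonetheless held 14 and 30 listed sites, 1 of them a DRATW site in cerebellum, and where those reads came from was not tested. The base in the PWK genome was not looked up, so how many of these T are C on the paternal allele was not tested.

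DRATW sequences are shown as the 21 bases around 1 site of each 5-mer, with the 5-mer in capitals, so that the difference from DRACH can be read directly. Each site was in both lists and on an exon of a coding transcript.
Xkr4: accaccacGGATTgaagaatc
Cdkl3: ttcatctaAAATAccaacttt
Zfp638: aatgtgatTGATTatgggcat
Grm5: gagataagAGATTcctgctgg
Zfp410: ggctttctTAATTtcattcac
Ptprd: cggattatGAATTtagagttg
Nlgn1: caataatgAAATTttgggtcc
Chaf1b: cggatctaTAATAcccagaaa
Eif3l: ggccctgaAGATActcatcca
Trib2: ttgctgtaTGATAcagaactc
Cdh8: aagtctttGGATAtttgatat
Nap1l2: agcccaatGAATAttttaaaa

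In GRCm38 the Xkr4 sequence is at chr1:3216197-3216217 on the minus strand, in the coding sequence of the last of 3 exons, 185 nt before the stop codon. The Grm5 sequence is at chr7:87602823-87602843 on the plus strand, in coding exon 3 of 10. Those of Ptprd (chr4:76128848-76128868, minus strand, exon 11 of 36), Nlgn1 (chr3:26133508-26133528, minus strand, exon 3 of 8) and Zfp638 (chr6:83929473-83929493, plus strand, exon 2 of 27) are also coding. So are those of Cdkl3 (chr11:52033557-52033577, plus strand, exon 12 of 14), Chaf1b (chr16:93892121-93892141, plus strand, exon 7 of 14) and Nap1l2 (chrX:103185416-103185436, minus strand, in its only exon). The remaining 4 are in the 3′ UTR of a last exon. They are Cdh8 (chr8:99030314-99030334, minus strand, 241 nt after the stop codon), Trib2 (chr12:15792227-15792247, minus strand, 1371 nt after it), Eif3l (chr15:79094232-79094252, plus strand, 3 nt after it) and Zfp410 (chr12:84331912-84331932, plus strand, 23 nt after it on a 6-exon isoform).

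GGATT stood first among the 12 5-mers by number and by the share of its adenosines that were listed. The share was counted over all adenosines of the same 5-mer on the same strand within 50 nt of any listed site, and 4.72% of all adenosines in these windows were listed, or 2.85% of those outside DRACH. Adenosines in the windows that were in neither list are called uncalled. GGATT had 2150 listed of 13943 adenosines, or 15.4% (95% Wilson interval 14.8% to 16.0%). The other 5-mers lay far below it. AAATA had 1013 listed sites (2.68% of its adenosines), TGATT 873 (3.95%), AGATT 860 (4.26%), TAATT 834 (2.93%), GAATT 807 (4.002%), AAATT 804 (2.28%), TAATA 614 (2.77%), AGATA 554 (3.35%), TGATA 529 (3.24%), GGATA 434 (4.78%) and GAATA 429 (2.88%). This order of numbers gives the ranks 1 to 12 in the plots.

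All 12 together had 3.85% of 257013 adenosines listed, below the 4.72% of all adenosines in the windows, and without GGATT the share was 3.19%. Both shares lay above the 2.85% of adenosines outside DRACH. The intervals of neighbours in the order of shares overlap for the most part, as those of AAATA (2.52% to 2.85%) and GAATA (2.62% to 3.16%) do, or those of TGATT (3.70% to 4.21%) and AGATT (3.99% to 4.55%). GGATT lay above the highest of the other 11 on each of the 19 autosomes, by 6.77 to 12.7 percentage points. On single autosomes its share ran from 11.5% to 17.8%, with a median of 15.4%. Wilson intervals cover counting error over positions, which lie close together in transcripts, and they say nothing of the spread between animals.

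C in place of T, with the other 4 bases unchanged, went with a higher share in all 12 pairs of 5-mers. The pooled share was 30.3% for C and 3.85% for T, a ratio of 7.85 (7.70 to 8.01), and the ratio was above 1 on 19 of 19 autosomes, from 5.62 to 8.83. GGACT was listed at 63.6% of its adenosines, 4.12 times the share of GGATT. The ratio was larger than that in 9 of the other 11 pairs, up to GAACT over GAATT (13.1), AAACT over AAATT (12.4), AGACT over AGATT (11.5), GGACA over GGATA (10.3), TGACT over TGATT (9.54) and GAACA over GAATA (9.02). It was smaller for AAACA over AAATA (3.04) and TAACA over TAATA (1.67), where the C counterparts themselves were listed at 8.13% and 4.63%.

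Where another DRACH site lay within 50 nt, the ratio of C to T was smaller for GGATT and larger for each of the other 11. This restriction holds called and uncalled adenosines to the same kind of window. Outside DRACH, 0.886% of adenosines in these windows were listed. GGATT reached 19.5% (1128 of 5781; 18.5% to 20.6%), and on single autosomes 15.8% to 24.0%. GAATT with 3.50%, GGATA with 3.46%, AGATT with 2.84% and TGATT with 1.23% followed it, and their lower bounds all lay above 0.886%. The other 7 lay between 0.330% for TAATT and 0.855% for AGATA. Among the C counterparts GGACT was listed there at 64.3% and TAACT at 25.6%, or 3.30 times as often as GGATT and 77.5 times as often as TAATT.

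**Figure D1:**
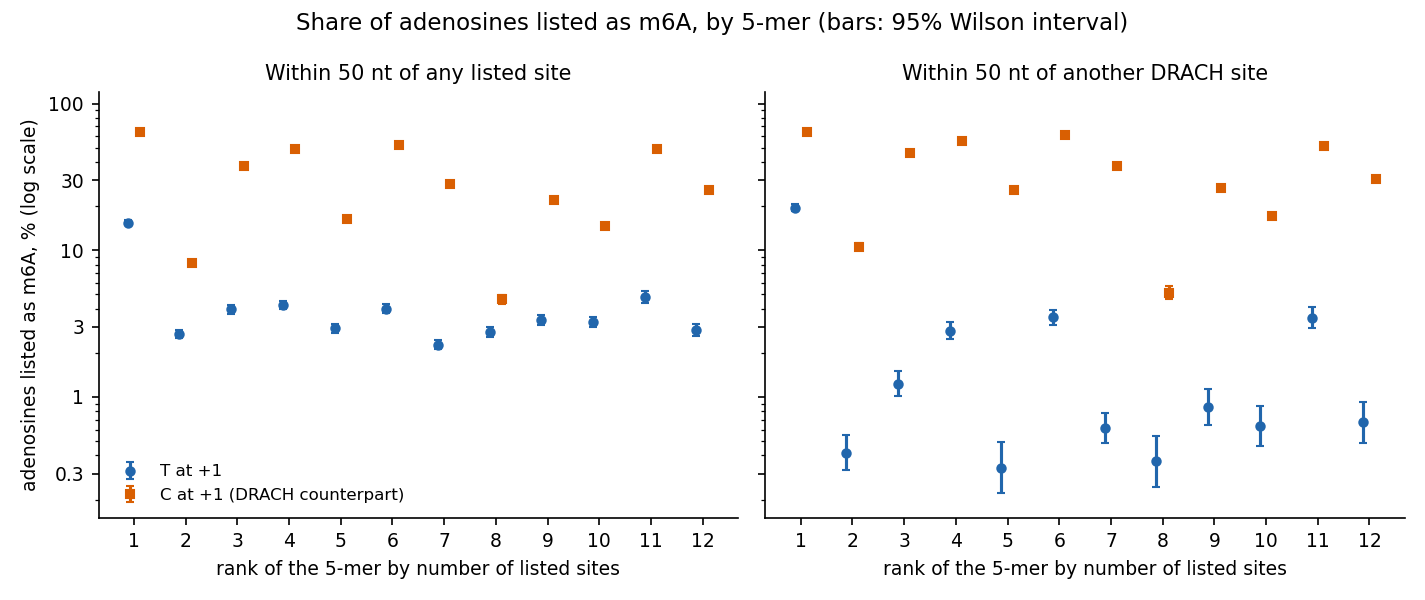
Share of adenosines listed as m6A (y axis, percent on a log scale) for the 12 5-mers with T at +1 (circles) and their counterparts with C at +1 (squares), ordered by number of listed sites, within 50 nt of any listed site (left) and of another DRACH site (right), with 95% Wilson intervals. C is above T in each pair, rank 1 (GGATT) is the highest with T at 15.4% and 19.5%, and the other T 5-mers spread from 0.330% to 3.50% on the right.

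Each library gave the same first place to GGATT. In cerebellum, whose windows had 4.71% of adenosines listed, 951 of 5106 GGATT adenosines were listed (18.6%; 17.6% to 19.7%), and in cerebrum, with 4.67%, 1843 of 12253 (15.04%; 14.4% to 15.7%). The other 11 went the other way, with 2.30% in cerebellum and 3.02% in cerebrum. DRATW sites made up 3.55% of 79355 positions in the cerebellum list and 4.28% of 188295 in the cerebrum list. GGATT was 951 of 2819 DRATW sites in cerebellum and 1843 of 8063 in cerebrum. These are differences between 2 libraries of unknown depth.

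More DRATW sites lay in introns than in any other region. Of the 9901 sites, 4168 (42.1%) were intronic, 2538 (25.6%) in 3′ UTRs, 1737 (17.5%) in coding sequence, 954 (9.64%) on exons of other transcripts, 174 in 5′ UTRs, 73 antisense to a gene and 257 in none of these. The intron share ran from 30.2% to 52.1% over the autosomes. Uncalled adenosines of the same 5-mers had 42.0% in introns, and listed DRACH sites 7.15%. Introns also held 45608 listed sites that fit neither DRATW nor DRACH. All listed adenosines outside DRACH, DRATW sites included, numbered 121512. A large number of intronic sites was thus not particular to DRATW among listed sites outside DRACH. GGATT did not share the intron-rich distribution of the DRATW sites. Only 159 of its 2150 sites (7.40%) were intronic against 32.0% of its uncalled adenosines, and 47.7% were in 3′ UTRs and 32.1% in coding sequence, which lies near the 47.6% and 34.5% of DRACH. Of the other 11, 51.7% of listed sites were intronic against 42.5% of uncalled adenosines. On exons of coding transcripts alone the pooled 3′ UTR shares of listed sites were alike. They were 56.7% for GGATT, 57.3% for the other 11 and 56.3% for DRACH. Uncalled adenosines there had 58.4% for GGATT but 67.6% for the other 11. Among the 11, single 5-mers ran from 48.2% of listed sites (GGATA) to 74.6% (AAATA).

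**Figure D2:**
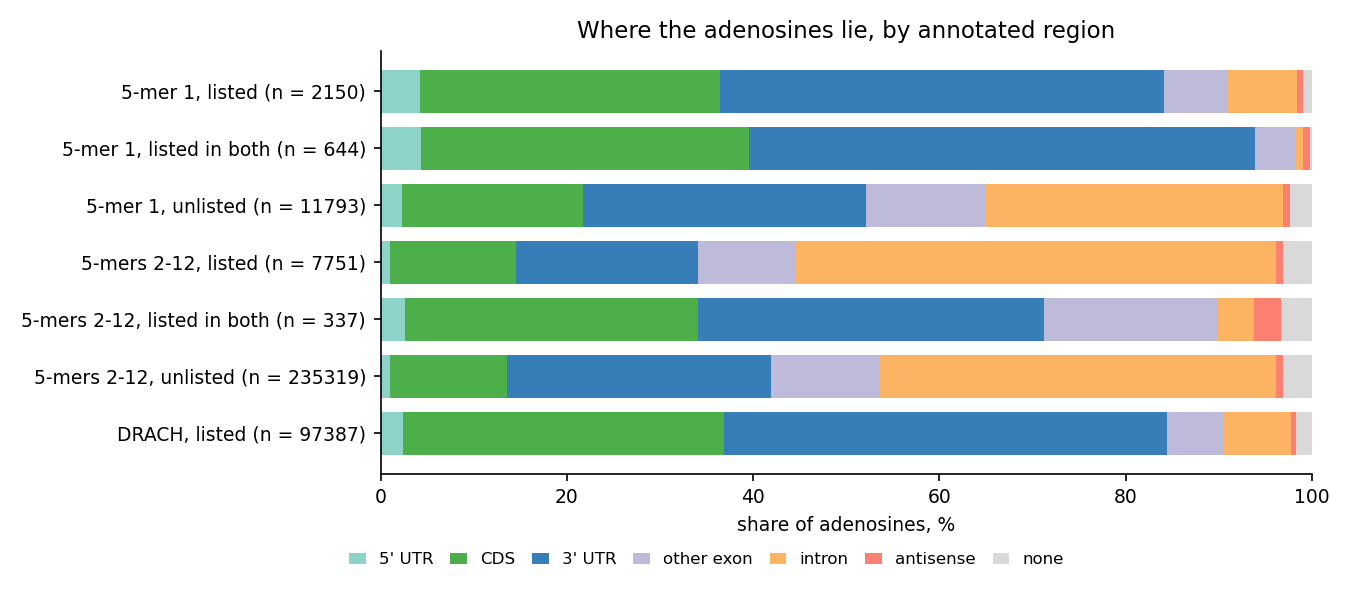
Share of adenosines in each annotated region (x axis, percent) for GGATT (5-mer 1), for the other 11 (5-mers 2-12), each listed in either library, listed in both, or unlisted, and for listed DRACH sites. Introns hold 7.40% of listed GGATT sites, 51.7% of the other listed sites and 3.86% of the other sites listed in both.

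On the exons of coding transcripts the 12 5-mers differed from one another, and in introns they lay in a narrower range. On coding exons GGATT was listed at 22.7% of its adenosines (1809 of 7962; 21.8% to 23.7%). GGATA reached 5.51%, GAATT 4.77%, AGATT 4.45% and TGATT 3.21%, and the others lay from 1.45% for AAATT to 2.35% for AGATA. In introns all 12 lay between 3.03% (AAATT) and 4.84% (TGATT), and GGATT had 4.05% (3.47% to 4.71%), inside that range. AAATA went from 1.49% on coding exons to 3.70% in introns, TAATT from 1.53% to 3.81% and TAATA from 1.59% to 3.74%. The windows differ between these regions. Of intronic DRATW sites 1.54% had a DRACH site within 50 nt, and of uncalled ones 10.7%. On coding exons it was 42.6% and 60.3%. A listed site also brings its own window, so shares on coding exons and in introns are not on equal terms.

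The ratio of C to T behaved likewise. It was 10.8 on coding exons and 1.997 in introns over all pairs, and 15.7 and 1.81 without GGATT. In introns AAACA and TAACA were listed less often than AAATA and TAATA, with ratios of 0.816 and 0.736, and the ratio was 1.05 for TGACA, 1.07 for TAACT and 1.16 for AGACA. The difference in windows just given applies to these ratios too. Over all regions, with another DRACH site within 50 nt, the ratio was 25.4 for AAACA over AAATA and 14.2 for TAACA over TAATA. In introns GGACT was listed at 25.3%, 6.25 times the share of GGATT. Within coding transcripts the share of GGATT was much the same by region, at 25.0% in 5′ UTRs (92 of 368), 23.2% in coding sequence and 22.2% in 3′ UTRs.

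Sharing between the tissues separated GGATT from the others again. Of the 2819 cerebellum DRATW sites, 981 were also in cerebrum, or 34.8% (33.1% to 36.6%; 20.6% to 49.7% over the autosomes), and these were 12.2% of the 8063 cerebrum sites. DRACH sites had 81.0% and 45.3%. Over all listed positions, 48241 were in both libraries, of 79355 in cerebellum and 188295 in cerebrum. DRATW sites made up 2.03% of those 48241 and DRACH sites 82.7%. In the cerebellum list they made up 3.55% and 62.1%, and in the cerebrum list 4.28% and 46.7%. By these counts the positions that fit neither DRATW nor DRACH were shared less often than DRATW sites. GGATT had 644 shared sites, 67.7% of its cerebellum sites (64.7% to 70.6%) and 34.9% of its cerebrum sites. It so made up most of the shared DRATW sites. The other 11 had 337 shared sites, 18.04% of their cerebellum sites and 5.42% of their cerebrum sites. Without GGATT, DRATW sites were thus shared less often than the positions that fit neither. In a bulk sample fewer cells that express a transcript and less of it per cell cannot be told apart, and either can keep a position off a list.

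Among the 11, the share of cerebellum sites also in cerebrum was highest for the 4 5-mers that were also listed most often near DRACH sites. GGATA had 38.0% (49 sites), GAATT 36.6% (93 sites), AGATT 26.8% (64 sites) and TGATT 22.0% (49 sites). TGATA had 13.7%, AGATA 12.2% and GAATA 11.8%, with overlapping intervals. AAATA had 7.59% (17 of 224), TAATT 7.50% (15 of 200), AAATT 6.33% (10 of 158) and TAATA 2.03% (3 of 148). A call in both libraries was thus rare for the most A-rich and T-rich 5-mers. When sites of 1 library were left out, the called share of all 12 was 0.395% and that of GGATT 5.18%. The ratio of C to T became 39.0 over all pairs and 8.43 for GGATT. It reached 506 (272 to 940) for AAACT over AAATT, which rests on the 10 shared AAATT sites.

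By region, 475 of 945 cerebellum DRATW sites in 3′ UTRs (50.3%) and 333 of 643 in coding sequence (51.8%) were also in cerebrum, but in introns 18 of 853 (2.11%; 1.34% to 3.31%). Intronic DRACH sites had 39.3%, and those in 3′ UTRs and coding sequence 82.1% and 85.8%. GGATT was at 72.3% in 3′ UTRs and 68.8% in coding sequence, and the other 11 at 27.1% and 33.9%. In introns GGATT had 5 of 31 (16.1%; 7.09% to 32.6%) and the other 11 had 13 of 822 (1.58%). The shared set as a whole therefore held 1.83% intronic sites, while the sites of 1 library held 46.5%.

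**Figure D3:**
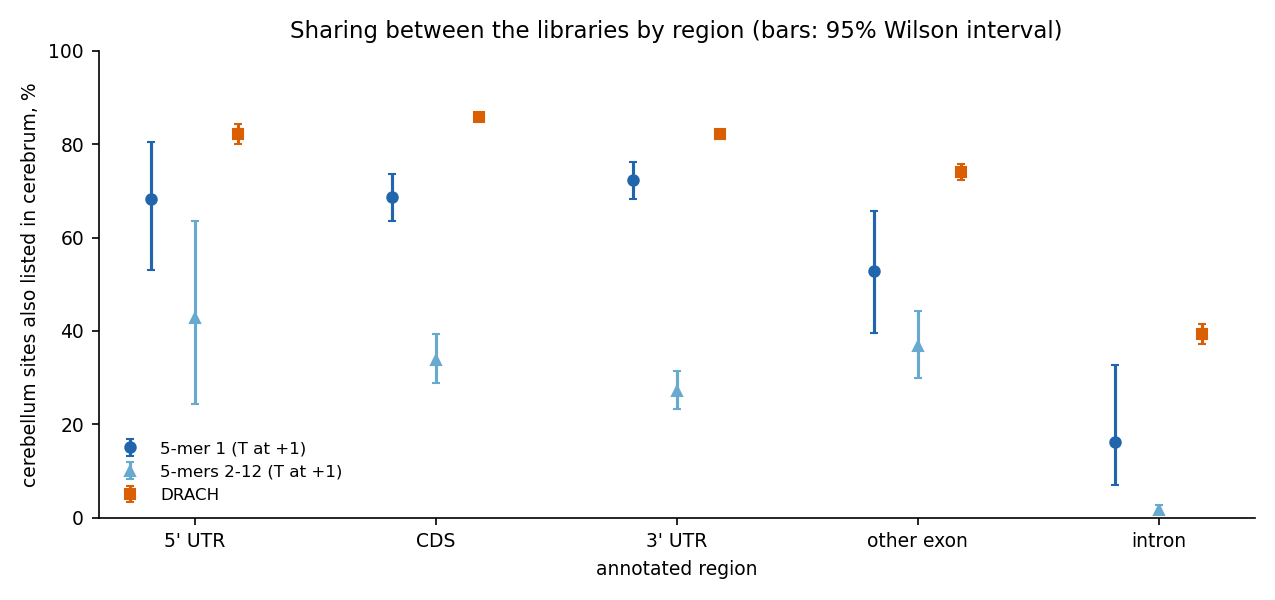
Percent of cerebellum sites also listed in cerebrum (y axis) by annotated region for GGATT (5-mer 1), the other 11 DRATW 5-mers (5-mers 2-12) and DRACH, with 95% Wilson intervals. In the 5 regions plotted GGATT lies between the other 11 and DRACH, from 72.3% in 3′ UTRs to 16.1% in introns, where the other 11 are at 1.58%.

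Along coding transcripts, listed GGATT sites lay near the stop codon more often than unlisted ones and the other 11 did not. Of 4449 DRATW sites on coding exons, 800 lay within 200 nt of the stop codon, or 17.98% (16.9% to 19.1%), against 15.03% of uncalled adenosines and 21.7% of DRACH sites. For GGATT it was 22.6%, against 15.3% of its uncalled adenosines, and for the other 11 it was 14.8%, against 15.02%. Of sites in both libraries, 25.4% lay there. In 100-nt bins the listed share of GGATT was 19.1% at 400 to 500 nt before the stop codon, 30.2% in the first 100 nt after it, 36.1% (31.8% to 40.6%) in the next 100 nt and 31.8% in the third, then between 19.4% and 28.7% out to 1000 nt. GGACT rose from 63.6% to 82.1% over the same stretch and stayed between 78.7% and 83.8% beyond. The other 11 fell from 4.87% in the first of these bins to 2.60% just after the stop codon.

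Close to exon junctions GGATT and GGACT were listed less often and the other 11 more often than farther away. Within 50 nt of a junction 7.29% of GGATT adenosines were listed (69 of 947), then 13.02% up to 100 nt, 27.6% from there to 200 nt, 36.2% from there to 400 nt and 22.6% (999 of 4411) beyond. GGACT went from 40.9% to 66.9%, 80.8%, 80.8% and 78.3% over the same bins. The other 11 had 4.26% within 50 nt and 2.34% beyond 400 nt. Exon length gave the same picture. GGATT was at 35.1% in internal exons longer than 400 nt (318 of 907), at 7.51% in shorter internal exons and at 23.5% in last exons, and the other 11 were at 2.80%, 4.30% and 2.29%.

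**Figure D4:**
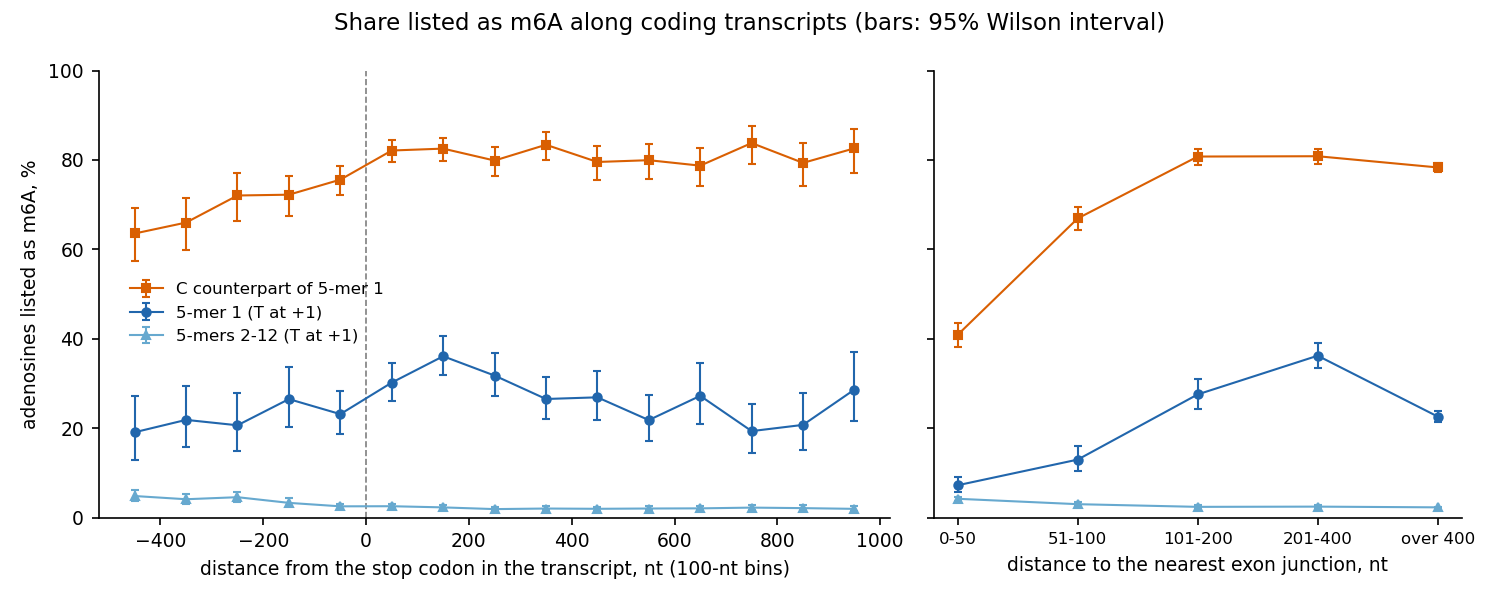
Share of adenosines listed as m6A (y axis, percent) on coding transcripts, by distance from the stop codon in 100-nt bins (left, negative is upstream) and by distance to the nearest exon junction (right), for GGACT (C counterpart of 5-mer 1), GGATT (5-mer 1) and the other 11 (5-mers 2-12), with 95% Wilson intervals. GGATT peaks at 36.1% between 100 and 200 nt after the stop codon and falls to 7.29% within 50 nt of a junction, and the other 11 stay under 5%.

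Most DRATW sites in both libraries were close to a DRACH site. Of all 9901, 2120 (21.4%) had a listed DRACH site within 50 nt, and on coding exons 42.6%, below the 60.3% of uncalled adenosines there. Uncalled adenosines had by construction a listed site within 50 nt and listed ones had none imposed, so these shares are not on equal terms. Of sites in both libraries 57.9% had a DRACH neighbour, of those in 1 library 17.4%, and of the intronic ones 1.54%. On coding exons, where 845 of the sites in both libraries lay, it was 62.1% of them, near the 60.3% of uncalled adenosines. For GGATT on coding exons it was 57.7%, near the 59.0% of its uncalled adenosines, and for the other 11 it was 32.3% against 60.4%. Repeat-masked sequence held 20.3% of DRATW sites, 24.2% of uncalled adenosines and 9.04% of DRACH sites.

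The bases flanking GGATT differed between listed and uncalled adenosines on coding exons. A lay at -4 in 45.1% of the 605 sites in both libraries and in 24.5% of 6153 uncalled adenosines. T lay at -3 in 53.6% and 36.9%, and T at 4 bases after the adenosine in 53.2% and 30.9%. A at 3 bases after it was less common in the sites, with 8.76% and 18.7%. Read as a called share, GGATT with A at -4 was listed at 31.8%, and with G there at 17.0%. With T at -3 it was 28.5% against 17.7% with G, and with T at 4 bases after 31.1% against 16.1% with G. The share of GGACT ran from 64.1% with G at -3 to 80.7% with T at -3 over all bases at these 4 positions. At -3 its range in percentage points was wider than that of GGATT, and at the other positions it was narrower. GGACT ran from 68.1% to 76.8% at -4 and from 67.5% to 79.6% at 4 bases after. At 3 bases after it ran from 68.8% to 78.7%, and GGATT from 12.2% to 28.0%.

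The combination was then counted, and its letters were chosen after these differences were seen. ATGGATTNT, searched on the site strand only, held 284 of the 7962 GGATT adenosines on coding exons, or 3.57%, and 157 of them were listed, or 55.3% (49.5% to 61.0%). Its range over 19 autosomes was 33.3% to 78.6%, with only 5 such adenosines on the autosome that had the fewest. GGATT with neither AT before nor T at that place was listed at 16.3% (771 of 4720). For ATGGACTNT the share was 86.2%, and for GGACT with neither 71.2%. The ratio of C to T in this context was smaller than over all GGATT. That is no separate result, because the letters came from differences in the same GGATT adenosines. GGACT was also already listed at 74.7% over all coding exons. In the same surroundings GGATA was listed at 25.5% (40 of 157) against 4.86% elsewhere, and GAATT at 19.3% (54 of 280) against 4.34%. GAATA was at 5.43% (10 of 184) against 1.97%. For the remaining 8 5-mers the interval of the share in this context held the share elsewhere.

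**Figure D5:**
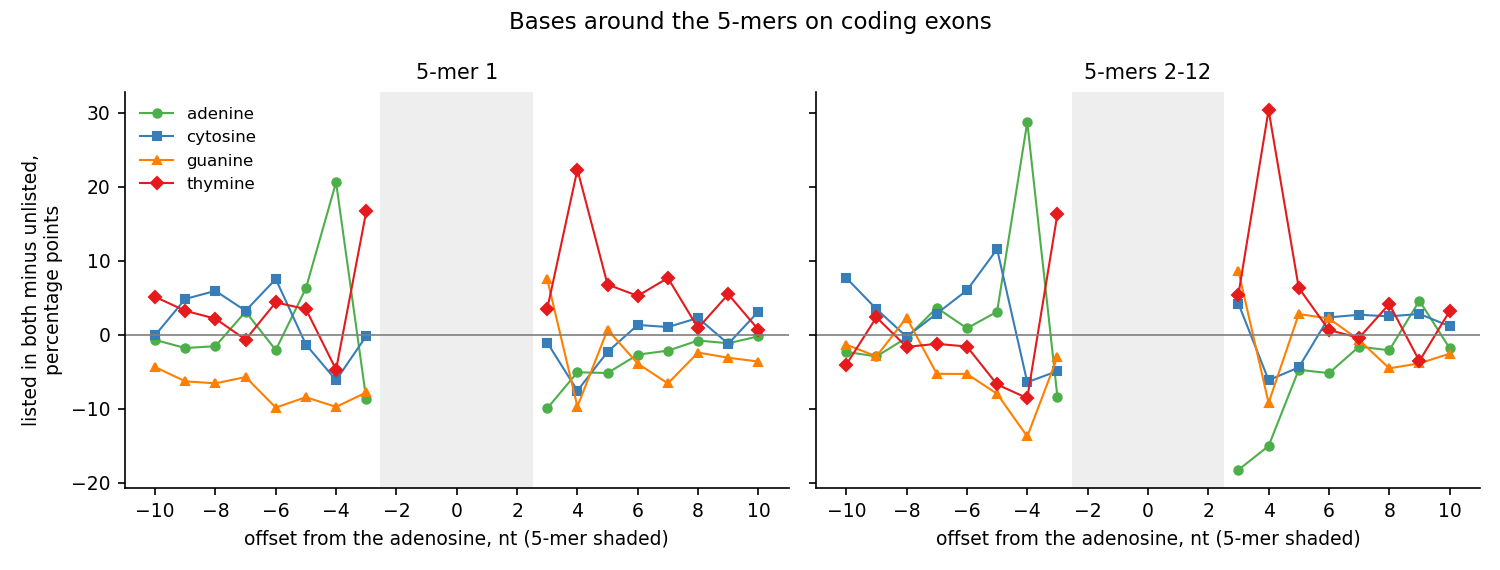
Difference in base frequency (y axis, percentage points) between sites listed in both libraries and unlisted adenosines on coding exons at 3 to 10 nt before and after the adenosine, for GGATT (left) and the other 11 pooled (right). Adenine at -4, thymine at -3 and thymine at 4 nt after are higher in listed GGATT sites by the differences given above, and the pooled panel also reflects a different mix of 5-mers.

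A further 4 GGATT sites with this context, in both libraries, are shown because their flanking bases in lower case can be compared with the Xkr4 site above, which has the A at -4 but neither T.
Map1b: cattcaatGGATTgtcagaag
Disp2: ccaagtatGGATTctaaaccc
Pip4k2b: gatgagatGGATTtttgtaga
Adgrl3: atgaaaatGGATTatgggtaa
The sites of Map1b (chr13:99432659-99432679, minus strand, exon 5 of 7) and Adgrl3 (chr5:81512392-81512412, plus strand, exon 9 of 27) are coding. Those of Disp2 (chr2:118792943-118792963, plus strand) and Pip4k2b (chr11:97717410-97717430, minus strand) are in 3′ UTRs, 127 and 1439 nt after the stop codon.

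Of intronic DRATW sites, 12.2% had another listed site within 10 nt, and it often lay at a multiple of 3 nt. The same held for other intronic sites outside DRACH that had such a neighbour. The nearest other listed site on the strand lay 3 nt away for 119 of the 4168, 6 nt away for 158 and 9 nt away for 61, while each other distance from 1 to 10 nt had 15 to 46. Of the 510 with a neighbour within 10 nt, 66.3% (62.1% to 70.2%) were at 3, 6 or 9 nt. On coding exons it was 38.6% of 874 for DRATW, and 32.3% for DRACH sites. Intronic DRACH sites had 29.8% of 429, and the intronic sites that fit neither DRATW nor DRACH had 73.9% of 6735 (72.8% to 74.9%), above the DRATW sites. The neighbour counted was a listed site of any 5-mer. Repeat-masked positions were 18.05% of the 338 intronic sites at 3, 6 or 9 nt. Around intronic sites of all 12 5-mers A lay at -4 in 29.5% of listed and 31.6% of uncalled adenosines, T at -3 in 33.7% and 33.5%, and T at 4 bases after in 43.3% and 37.5%. The 159 intronic GGATT sites had A at -4 in 39.0% against 29.97% of 3771 uncalled GGATT adenosines, T at -3 in 50.9% against 41.6%, and T at 4 bases after in 51.6% against 38.8%. These differences run the same way as on coding exons. Over all 12, G at 3 bases after the site was less common, with 9.62% and 14.7%.

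Some DRATW 5-mers lie inside known signals, and these were not listed more often. In 3′ UTRs the second A of AATAAA, the main polyadenylation signal, was listed at 51 of 3798 (1.34%; 1.02% to 1.76%), against 1.60% where the 4 bases AATA lay outside that hexamer. The first A of the variant ATTAAA was listed at 20 of 1251 (1.60%; 1.04% to 2.46%), against 2.54% for other sites followed by TT, with GGATT left out. Of 228 adenosines in annotated stop codons that fit a DRATW 5-mer, 4 were listed. In coding sequence the adenosine was the second base of a codon in 46.1% of 1737 sites and in 45.7% of uncalled adenosines.

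Among 12658 coding genes with a listed site of any kind, 3769 (29.8%) had a DRATW site and 708 (5.59%) had one in both libraries. A gene with such a site usually had 1, as 2172 genes did. Grm5, a metabotropic glutamate receptor, and Xkr4, a member of the XK-related family, had the most in both libraries, with 7 each. Grm5 had 14 sites in cerebellum and 19 in cerebrum, and 6 of the shared sites were GGATT. Xkr4 had 10 and 20, and 4 of the shared sites were GGATT. Both were also rich in DRACH sites, with 34 and 47 in both libraries.

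Ptprd, a receptor tyrosine phosphatase of synapses, followed with 5 shared sites. The remaining 7 of the 10 genes named by this count had 4 each, namely the synaptic adhesion genes Nlgn1 and Lrfn5, the cadherin Cdh8, the zinc finger genes Zfp638 and Zcchc14, the transcription factor Foxp1 and the receptor phosphatase Ptprz1. In Zcchc14 all 6 DRATW sites were GGATT and on coding exons. In Foxp1 all 4 shared sites were GGATT, while only 3 of its 17 DRACH sites were in both libraries. Ptprz1 had 66 DRACH sites in both and 1 GGATT.

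By the union the order was another one. Ptprd had 86 DRATW sites, of which 75 were intronic, and 77 were listed in cerebrum and 14 in cerebellum. Lsamp had 60, Cadm2 57 and Pcdh9 50, all genes for neuronal adhesion molecules. Their introns held 57, 56 and 46 of these sites. Few were shared, with 0 in Lsamp, 0 in Cadm2 and 1 in Pcdh9. The list of 20 neuronal adhesion and guidance genes had DRATW sites in 18 (90.0%), all but Slit1 and L1cam, and in both libraries in 11 (55.0%). Of all coding genes with a listed site it was 29.8% and 5.59%. These were not matched for the number of listed sites per gene. A DRACH site was listed in all 20, and in 10034 of the 12658 coding genes. The list held 276 DRATW sites, 85.1% of them intronic, against 44.6% over all coding genes, and 15 were in both libraries. Nrxn3 had 40, Cntnap2 35, Nlgn1 27, Robo2 26 and Robo1 25, while Nrxn2 had 2, both GGATT and in both libraries.

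In the list of 16 genes of the m6A machinery, 12 had a DRATW site (75.0%) and 5 had one in both libraries (31.2%). Of all coding genes with a listed site it was 29.8% and 5.59%. These were not matched for the number of listed sites per gene. A DRACH site was listed in 14 of the 16, and in 10034 of the 12658 coding genes. The methyltransferase genes Mettl3, Mettl14 and Mettl16 and the demethylase gene Alkbh5 had none. Mettl14 and the reader gene Ythdc2 had no DRACH site either. The 5 with a shared site were Wtap, Rbm15 and Rbm15b, whose proteins are partners of the methyltransferase, and Ythdf2 and Ythdf3, which encode cytoplasmic readers, each with 1. Shared sites were GGATT in Wtap, Rbm15 and Ythdf3. The list held 23 DRATW sites in all, 17 of them on coding exons and 9 of them GGATT. Among genes outside these rules, Xist had 13 DRATW sites, 7 of them in both libraries and 3 of those GGATT, and it was chosen after its values were seen.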

How the data were processed

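GLORI was done on 1 cerebellum and 1 cerebrum RNA sample. The authors used GLORI-tools with mm10 and, separately, PWK-mm10 as the reference, merged the calls of a library, and required a rate over 0.1 and over 8 reads. The deposited files hold other values than rates or counts: each line is a genomic position with its strand. Such filters favour expressed, well covered transcripts.

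Positions were looked up in GRCm38, the assembly that mm10 names, and 510 positions without A on the site strand could not be members. Regions came from GENCODE mouse gene models (not the release the paper names), on the longest complete coding isoform that covers the position. The 5-mer was the same in the transcript sequence for 4413 of 4413 members on coding exons over 2 nt from a junction. Adenosines of the same 5-mers on the same strand within 50 nt were the comparison. Shares have 95% Wilson intervals and ratios 95% log-scale intervals, without tests, as there were no replicates. Functions were tested on simulated data. Python 3.11.15, numpy 2.4.6 and pandas 2.3.3 were used.

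Genes named were the 10 coding genes with most members in both libraries, the 5 with most in the union and 2 lists, and some of these genes are not reported here. The printed sites were, per 5-mer, the shared site on a coding exon in the gene with most shared members, ties going to the one nearest the stop codon, with no gene used again and none on 1 chromosome that was left out. Members, lists and the separate account of GGATT were chosen with earlier results of these data known.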

Additional observations from a re-analysis of the deposited data

How the results depend on the processing

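No paired analysis was possible because each tissue has 1 library, and for the same reason no replicate could be left out. C stood above T in all 12 pairs and GGATT first among the 12 under each of the 6 alternatives tried for them, but the size of shares and ratios moved. The share of all 12 was 8.40% in windows of 20 nt and 2.18% in windows of 100 nt, since wider windows add uncalled adenosines. It was 2.46% near another DRACH site, 4.07% on coding exons, 4.04% outside repeats and 0.395% for sites in both libraries. In the same order the share of GGATT was 32.6%, 8.63%, 19.5%, 22.7%, 16.3% and 5.18%. That of the other 11 was 6.96%, 1.80%, 1.24%, 2.61% and 0.143%, without the value outside repeats, which stayed within the interval. The ratio of C to T was 6.14, 8.58, 14.1, 10.8 and 39.0, again without that value, and for GGATT 2.62, 5.11, 3.30, 3.29, 3.95 and 8.43. Of 132 values for single 5-mers under these alternatives, 30 stayed within the interval of the value given in the text.

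The share of cerebellum sites also in cerebrum was 51.2% on coding exons, 38.3% outside repeats and 37.3% with each gene weighted equally, against 34.8%. A match within 1 nt left it within its interval. The share of sites with a DRACH site nearby was 10.97% within 20 nt, 28.5% within 100 nt and 42.6% on coding exons. With each gene weighted equally the 3′ UTR share of sites on coding exons was 59.4% against 57.0%, and the share within 200 nt of the stop codon 19.4% against 17.98%. For sites in both libraries the latter was 25.4%. The isoform with the longest coding sequence left both within their intervals. The cause of these shifts was not tested beyond the windows. Without read counts, the effect of depth on which sites are listed cannot be measured.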
